A study of Mus musculus with 15 samples.

Results

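The phase II conjugation enzymes of mouse colon were taken as every gene of the deposited array table whose single annotated symbol names a glutathione S-transferase (Gst classes alpha, mu, pi, theta, omega, kappa and zeta), a microsomal glutathione S-transferase (Mgst), a UDP-glycosyltransferase (Ugt) or a sulfotransferase (Sult). The rule found 47 genes among the 18193 measured: 20 Gst, 3 Mgst, 11 Ugt and 13 Sult genes. The symbols alone define the members, although these families were proposed with earlier results of the same data known. Each gene was read on 1 probe set, the one with the highest mean over the 15 arrays, and 12 of the 47 genes had more than 1. A further 5 probe sets carry several symbols of these families, among them those of the Ugt1a locus, and did not count as members.

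Gene expression was measured in colon of male mice aged 3 months, on a mixed C57BL/6 and 129 background, with 3 Affymetrix Mouse430_2 arrays in each of 5 groups. The groups were tumour tissue of Apc+/- Olfm4-/- mice, normal tissue adjacent to the tumour of the same mice, Olfm4-/- colon with intact Apc (Olfm4 mutant), Apc+/- colon with intact Olfm4 (APC mutant), and wild type colon. The tumour and the adjacent tissue both lack Olfm4 and carry 1 mutant Apc allele, and the labels name no promoter, Cre or treatment. The labels state 3 mice a group, but the titles of the tumour and adjacent arrays carry 2 animal numbers, so replicate 1 is 1 animal and replicates 2 and 3 are another. The number in the title of Olfm4 mutant replicate 3 joins digits of those of the group's other mice, so whether it is a separate mouse is unclear. It was kept as a sample, and without it the 3 comparisons that use Olfm4 mutant colon again gave 0 calls among the members. A p-value here thus reflects variation among tissue pieces that in part come from 1 mouse. Olfm4 itself read 2.97 to 3.32 in all 15 arrays, wild type included, and the kept Apc probe set read 10.42 to 10.78 in APC mutant colon, against 10.04 to 10.31 in wild type colon, so neither gene checks the genotype labels on these arrays. All values are on the deposited log2 scale, where 1 unit is a doubling.

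Phase II enzymes attach a polar group to drugs, carcinogens, hormones, bile acids and products of lipid oxidation, which makes these easier to excrete. Glutathione S-transferases join glutathione to reactive electrophiles, UDP-glucuronosyltransferases transfer glucuronic acid from UDP-glucuronate, and sulfotransferases transfer sulfate from the donor PAPS. In the colon these enzymes are known mainly from the absorptive epithelium, which meets dietary and bacterial compounds first, and many respond to the receptors Ahr and Nr1i2 or to the oxidant-sensing factor Nfe2l2.

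The sequences just before the start of 5 of these genes are shown as examples, chosen by the genes' levels. Sult1a1 and Sult1d1 stand for the sulfotransferases whose mRNA fell in the tumours. Gsta3 is a gene lower in tumour and adjacent tissue than in wild type colon. Gstm5 and Gstm2 are members of 1 gene cluster that differed in opposite directions between tumour and adjacent tissue, although Gstm5 was level between tumour and wild type colon (-0.01). Each sequence is the 250 bases upstream of the RefSeq start on GRCm38.p6, read 5′ to 3′ along the gene, with matches to the searched motifs in capitals. In Sult1d1 these are an Hnf1 site and, read on the other strand, an Ahr-Arnt element. In Gsta3 and Gstm5 they are the core of the antioxidant response element, the sequence Nfe2l2 binds.
Sult1a1, chr7:126676419-126676668, minus strand: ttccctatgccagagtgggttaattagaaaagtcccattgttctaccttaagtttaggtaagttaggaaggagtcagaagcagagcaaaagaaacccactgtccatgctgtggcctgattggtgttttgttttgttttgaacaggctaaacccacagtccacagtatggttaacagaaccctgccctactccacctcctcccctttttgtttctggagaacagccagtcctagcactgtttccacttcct
Sult1d1, chr5:87569007-87569256, minus strand: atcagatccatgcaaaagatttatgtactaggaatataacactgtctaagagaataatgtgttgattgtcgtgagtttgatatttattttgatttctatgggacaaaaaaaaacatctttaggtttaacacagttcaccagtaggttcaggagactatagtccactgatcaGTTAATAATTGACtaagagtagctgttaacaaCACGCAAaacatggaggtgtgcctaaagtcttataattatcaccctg
Gsta3, chr1:21240335-21240584, plus strand: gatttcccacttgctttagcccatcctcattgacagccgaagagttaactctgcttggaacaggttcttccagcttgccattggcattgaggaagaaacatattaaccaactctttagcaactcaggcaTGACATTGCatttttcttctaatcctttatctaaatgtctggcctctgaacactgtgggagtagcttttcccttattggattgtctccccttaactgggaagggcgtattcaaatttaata
Gstm5, chr3:107895604-107895853, plus strand: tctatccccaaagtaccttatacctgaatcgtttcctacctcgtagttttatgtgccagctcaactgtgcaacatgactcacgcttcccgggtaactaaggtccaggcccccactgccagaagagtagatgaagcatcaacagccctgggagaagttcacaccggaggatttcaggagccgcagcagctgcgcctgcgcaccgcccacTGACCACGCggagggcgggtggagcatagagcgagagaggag
Gstm2, chr3:107986421-107986670, minus strand: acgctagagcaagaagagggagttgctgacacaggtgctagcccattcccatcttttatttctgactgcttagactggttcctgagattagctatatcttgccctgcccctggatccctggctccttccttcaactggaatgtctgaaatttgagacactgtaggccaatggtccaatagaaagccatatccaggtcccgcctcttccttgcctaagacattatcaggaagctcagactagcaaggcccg

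The 3 motifs were searched on both strands in windows of 300 bases, 250 before and 50 after each start: the antioxidant response element core TGACNNNGC, the Ahr-Arnt element TNGCGTG and the Hnf1 site, and none of the members' matches overlapped another. RefSeq windows were found for 42 of the 47 genes, 54 windows in all. Gsta4, Ugt3a2, Sult4a1, Gstt2 and Sult2a2 had none in the table. The antioxidant response element core stood in 4 of the 54 member windows (7.41%), those of Gsta3, Gstm5, Gstm7 and Mgst1, against 12.4% of all 32851 windows searched. Ahr-Arnt matches stood in the windows of Sult1d1 and Gsta2 (3.70% of member windows, against 5.07% of all windows). The Hnf1 letters stood in the Sult1d1 window from 79 to 67 bases before the start, as in 0.0578% of all windows. These letters describe the sequences, and no factor's binding was measured.

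Between tumour and adjacent tissue 19 of the 47 conjugation enzymes fell and 4 rose at an adjusted p of 0.05. Of all 18193 genes 13.8% fell and 14.3% rose, so the members' 40.4% lower stood above the share of all genes and their 8.51% higher below it. The members' median difference was -0.49, against 0.00 over all genes. The deepest falls were those of the sulfotransferases Sult1a1 (-4.26) and Sult1c2 (-3.29), with Ugt2b1, Mgst3, Sult1d1, Gstm2 and Sult1b1 lower by more than 2 units each. Falls of at least 1 unit numbered 15, against 7.33% of all genes, and rises of that size numbered 3 (Ugt8a, Gstm7 and Gstm5), against 6.58% of all genes. Between tumour and wild type colon 24 members were lower and 4 higher, with 20.1% of all genes lower and 29.3% higher. The array values of tumour and adjacent tissue did not overlap for 25 members, 21 with the tumours below and 4 with them above, against 45.9% of all genes.

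Adjacent tissue differed from wild type colon in fewer of these genes. There 11 members were lower and 3 higher (23.4% and 6.38%), with 10.1% of all genes lower and 17.7% higher. Of these 14 calls 8 held without adjacent replicate 1, 9 without adjacent replicate 3 and 8 without wild type replicate 2. With animal as a random block 10 held, and with the arrays of 1 animal and tissue averaged 10 held. Against APC mutant colon 8 members were lower in adjacent tissue and 0 higher, with 7.45% of all genes lower and 9.88% higher, and 13 members had an unadjusted p under 0.05, as had 33.1% of all genes. In Olfm4 mutant colon 0 members were called against wild type by limma, where 7.92% of all genes were, and 11 had an unadjusted p under 0.05, as had 24.6% of all genes. Without Olfm4 mutant replicate 1 there was 1 call, and without wild type replicate 1 there were 2. In APC mutant colon 0 members were called, as were 0% of all genes, and 1 member, Ugt2b1, had an unadjusted p under 0.05, as had 7.28% of all genes. Adjacent tissue against Olfm4 mutant colon gave 0 calls, with 0.044% of all genes called, and 8 members at an unadjusted p under 0.05 (16.3% of all genes), but without Olfm4 mutant replicate 2 there were 4 calls. The interaction, which subtracts the Olfm4 mutant to wild type difference from that between adjacent tissue and APC mutant colon, also gave 0 calls, with 0% of all genes called. At an unadjusted p under 0.05 stood 4 members (10.4% of all genes), and there was 1 call once Olfm4 mutant replicate 2 was left out.

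**Figure D1:**
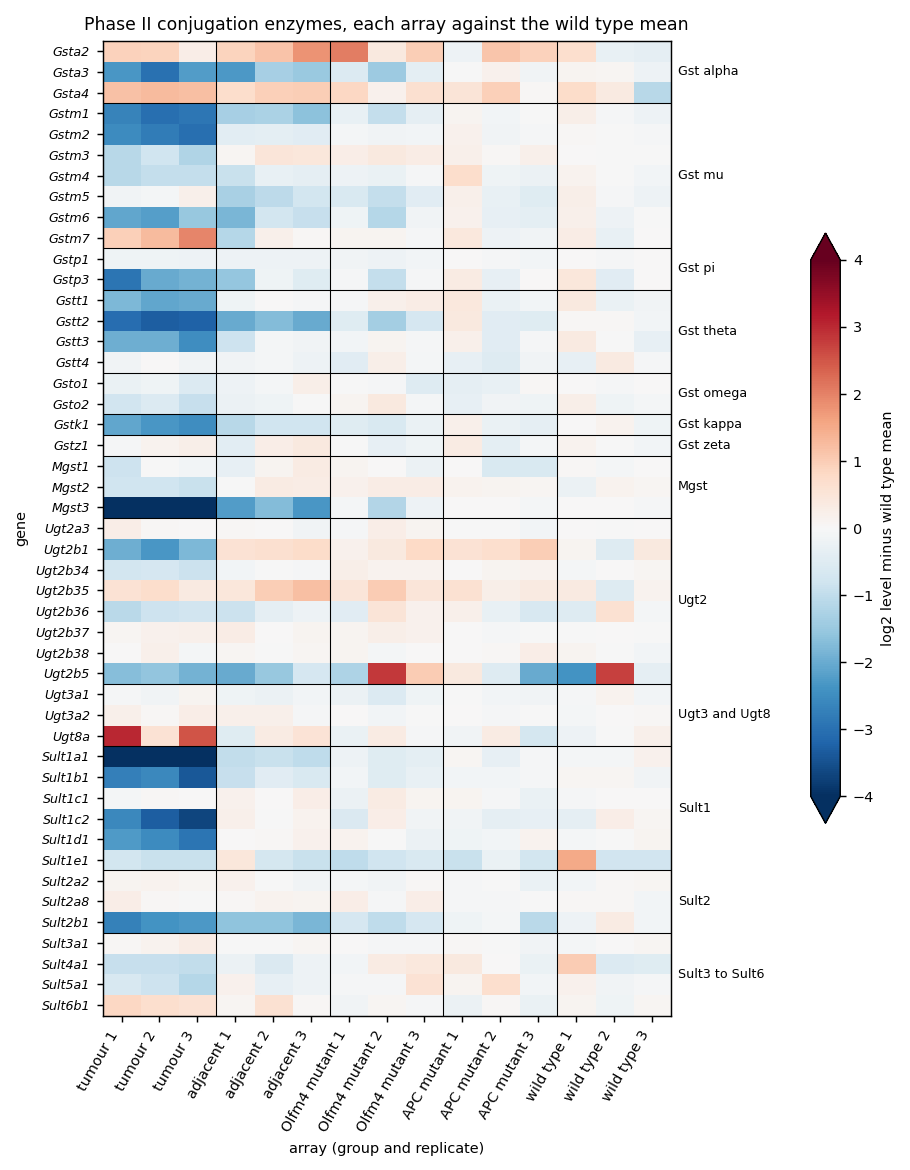
Log2 level of each of the 47 conjugation enzymes in each of the 15 arrays minus the gene's wild type mean, by enzyme class; red is higher and blue lower than wild type, and the scale ends at 4 on both sides. The 3 tumour columns are blue for most Gst mu, Gst theta and Sult1 genes, and Mgst3, Gstt2 and Sult2b1 are blue in adjacent tissue too.

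Several measures of the arrays moved with the groups. The order in which arrays were numbered ran in blocks by group, so anything that follows that order cannot be told apart from group. The 3-prime minus 5-prime difference of 4 added bacterial control RNAs averaged 5.01 ± 0.255 in tumours and 4.10 ± 0.300 in adjacent tissue. In Olfm4 mutant, APC mutant and wild type colon it averaged 2.64 ± 0.525, 2.16 ± 0.203 and 1.99 ± 0.0831 (SD, n = 3 each). With this difference as a covariate all 23 members called between tumour and adjacent tissue kept their sign and 17 were still called, the others being Gstp3, Gstt2, Sult2b1, Sult5a1, Sult6b1 and Ugt8a, while of the 28 called between tumour and wild type 27 kept their sign and 0 were called, with the median SE at 0.87 in place of 0.23. Absorptive colonocyte markers fell with the enzymes. Of 12 such markers 11 were lower in tumour than in adjacent tissue, with summed levels of 14.27 to 14.95 in tumours and 16.43 to 16.60 in adjacent tissue, against 16.86 to 16.95 in wild type colon. Of 7 pan-epithelial markers 2 were lower, with sums of 16.21 to 16.35 in tumours and 16.33 to 16.43 in adjacent tissue, against 16.67 to 16.76 in wild type colon. All 9 smooth muscle markers were lower as well, with sums of 12.64 to 14.01 in tumours, against 15.48 to 15.89 in adjacent tissue, as were 6 of 7 goblet markers, while all 8 Wnt target and stem markers and all 5 neutrophil markers were higher. The part of these shifts in the results was not tested, and fewer cells of a type and less RNA per cell cannot be told apart in bulk tissue. The labelled tissue, colon, held the absorptive markers at wild type means of 10.76 and above. Sums of 6 proximal small intestine markers also moved with the groups, at 13.7 to 14.4 in wild type colon and 11.6 to 12.9 in adjacent tissue. In tumours these sums were 9.1 to 9.4, with 3 of the 6 markers called lower than in adjacent tissue.

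The Sult1 sulfotransferases held the deepest falls among the members, those of Sult1a1 and Sult1c2. Of the 6 members 4 fell in tumours against adjacent tissue (66.7%, against 13.8% of all genes) and 0 rose. Sult1a1, which sulfates small phenols, stood at 9.30, 7.60 and 7.91 in the tumours, against 12.52, 12.60 and 12.46 in adjacent tissue. Colon of the other mice gave 13.29, 12.997 and 13.09 in Olfm4 mutant colon and 13.56, 13.16 and 13.46 in APC mutant colon, against 13.42, 13.40 and 13.66 in wild type colon. The tumours lay below every other array, with tumour replicate 1 apart from the pair of pieces of the other animal. The difference was -4.26 (SE 0.32, adjusted p = 1.21e-06), a level 19.1-fold lower in tumour than in adjacent tissue and 37.4-fold lower than in wild type colon. Adjacent tissue lay below every wild type array too, by -0.97 (SE 0.32, adjusted p = 0.0381), a call that did not survive the loss of any 1 of the 6 arrays (adjusted p from 0.0602 to 0.1), nor animal as a random block (0.0834), nor averaging the arrays of 1 animal (0.0704).

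Sult1c2, a sulfotransferase of the 1C subfamily, read 8.999, 8.29 and 7.92 in the tumours, against 11.78, 11.57 and 11.72 in adjacent tissue. Its levels elsewhere were 11.004, 11.85 and 11.44 in Olfm4 mutant colon and 11.44, 11.23 and 11.25 in APC mutant colon, against 11.24, 11.85 and 11.69 in wild type colon. Here the adjacent tissue overlapped wild type colon, and the tumours stood alone at the low end. Tumour minus adjacent tissue was -3.29 (SE 0.26, adjusted p = 2.26e-06), while adjacent minus wild type was 0.10, with a 95% interval of -0.47 to 0.67. Sult1d1, known in mice for sulfating catecholamines, had 10.59, 10.34 and 9.91 in the tumours, against 12.85, 12.90 and 13.01 in adjacent tissue. In the remaining groups Sult1d1 measured 12.98, 12.84 and 12.62 in Olfm4 mutant colon and 12.66, 12.74 and 12.99 in APC mutant colon, against 12.76, 12.83 and 12.96 in wild type colon. All 12 arrays other than the tumours lay within 12.62 to 13.01, and the tumours fell by 2.64 against adjacent tissue (SE 0.16, adjusted p = 3.38e-07). Its second probe set gave a difference of -3.41 for the same comparison.

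Sult1b1, the sulfotransferase for thyroid hormones and phenols, had 10.32, 10.47 and 9.66 in the tumours, against 12.15, 12.60 and 12.44 in adjacent tissue. The other colons gave 12.94, 12.59 and 12.77 in Olfm4 mutant colon and 12.94, 12.94 and 12.999 in APC mutant colon, against 13.12, 13.13 and 12.93 in wild type colon. No tumour array reached an adjacent one, and the lowest 3 of the remaining values were in adjacent and Olfm4 mutant tissue. The fall was -2.24 (SE 0.19, adjusted p = 3.32e-06) against adjacent tissue and -2.91 (SE 0.19, adjusted p = 2.13e-07) against wild type colon. Adjacent tissue was lower than wild type colon by a smaller amount, -0.67 (SE 0.19, adjusted p = 0.02), which was not called without adjacent replicate 1 or wild type replicate 2 (adjusted p of 0.0750 and 0.0612) or with animal as a random block (0.0547). The oestrogen sulfotransferase Sult1e1 averaged 3.61 ± 0.0856 in tumours, 4.07 ± 0.724 in adjacent tissue and 4.45 ± 1.31 in wild type colon (SD, n = 3 each), at the dim end of the scale, and Sult1c1 averaged 5.36 ± 0.0659 in tumours and 5.52 ± 0.125 in adjacent tissue. Neither was called in any comparison. Sult1b1, Sult1d1 and Sult1e1 are neighbours on chromosome 5, next to the Ugt2 genes.

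**Figure D2:**
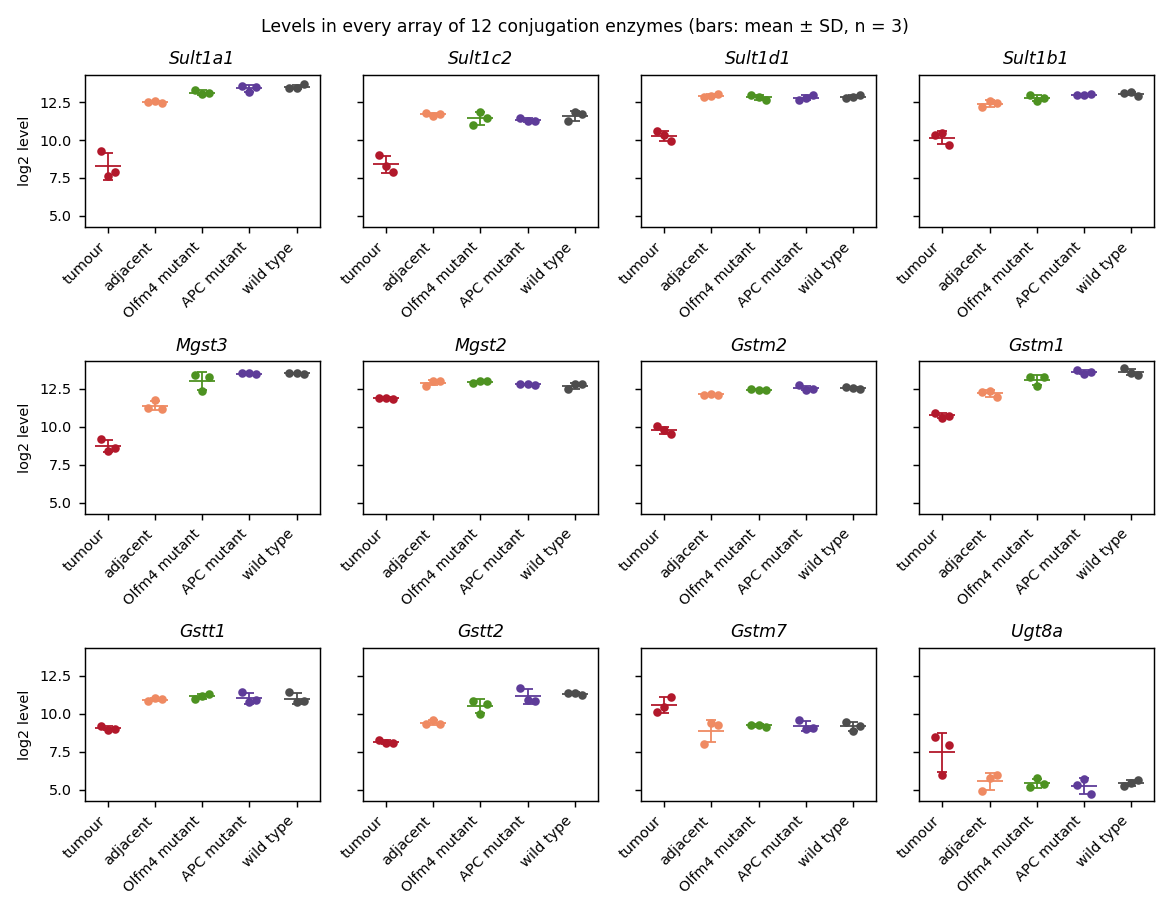
Log2 level of 12 conjugation enzymes in every array (points), with the mean and SD of each group of 3 (bars), for tumour, adjacent, Olfm4 mutant, APC mutant and wild type tissue. Sult1c2, Sult1d1 and Gstt1 are low in the tumours with adjacent tissue near wild type, Mgst3 and Gstt2 are intermediate in adjacent tissue, and Gstm7 and Ugt8a are higher in the tumours.

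The other 7 sulfotransferases had tumour minus adjacent differences between -0.79 and 0.46. Sult2b1, which sulfates cholesterol and pregnenolone, stood at 7.89, 8.20 and 8.30 in the tumours, against 8.99, 8.999 and 8.78 in adjacent tissue. Its other values were 9.95, 9.59 and 9.95 in Olfm4 mutant colon and 10.43, 10.51 and 9.52 in APC mutant colon, against 10.41, 10.92 and 10.48 in wild type colon. The groups formed a sequence, with tumours lowest, adjacent tissue next and neither overlapping any other group. Adjacent tissue differed from wild type colon by -1.68 (SE 0.24, adjusted p = 0.000583), and tumour differed from adjacent tissue by -0.79 (SE 0.24, adjusted p = 0.0238). The tumour call was lost without tumour replicate 1, adjacent replicate 1 or adjacent replicate 2, with adjusted p from 0.0676 to 0.0872, and with the arrays of 1 animal averaged (0.0794). With the spike-in covariate the tumour difference was -0.35 (adjusted p = 0.592), and adjacent minus wild type was -0.65 (SE 0.62), also not called. The hydroxysteroid sulfotransferases Sult2a2 and Sult2a8 averaged 4.05 ± 0.0365 and 3.21 ± 0.148 in tumours, against 3.94 ± 0.0958 and 3.11 ± 0.0816 in wild type colon (SD, n = 3 each), close to the lowest values of the table.

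Sult4a1, a sulfotransferase known mainly from brain, read 6.04, 6.04 and 5.97 in the tumours, against 6.74, 6.39 and 6.74 in adjacent tissue. The other groups read 6.84, 7.29 and 7.39 in Olfm4 mutant colon and 7.35, 6.97 and 6.68 in APC mutant colon, against 7.96, 6.42 and 6.49 in wild type colon. The tumours lay below all other arrays, and wild type replicate 1 was the highest array. It was called against wild type colon, at -0.94 (SE 0.33, adjusted p = 0.0322), and not against adjacent tissue, at -0.61 (SE 0.33, adjusted p = 0.206). The first call was lost without any 1 of the tumours (adjusted p from 0.0634 to 0.0775) or without wild type replicate 1, where the difference was -0.43 (0.101). It was also lost with array weights, the compared arrays alone or averaged arrays (0.0612 to 0.118). The second Sult4a1 probe set gave 0.25 for tumour minus wild type, and the mean of both sets -0.35 (adjusted p = 0.170). Sult5a1 had 5.54, 5.38 and 5.06 in the tumours, against 6.36, 5.88 and 6.003 in adjacent tissue. Its further values were 6.15, 6.15 and 6.76 in Olfm4 mutant colon and 6.32, 6.87 and 6.09 in APC mutant colon, against 6.36, 6.06 and 6.16 in wild type colon. The tumours again lay lowest, by -0.75 (SE 0.23, adjusted p = 0.0233) against adjacent tissue, a call lost without tumour replicate 2 or 3 or adjacent replicate 1 (adjusted p from 0.0510 to 0.0971) or with averaged arrays (0.0897). Sult6b1 went the other way, with 5.57, 5.40 and 5.30 in the tumours, against 4.80, 5.32 and 4.78 in adjacent tissue. Other colons had 4.58, 4.80 and 4.68 in Olfm4 mutant colon and 4.49, 4.78 and 4.47 in APC mutant colon, against 4.82, 4.56 and 4.80 in wild type colon. Adjacent replicate 2 overlapped the tumours, and the rise of 0.46 (SE 0.16, adjusted p = 0.0435) was lost with the replicate block (adjusted p = 0.119) and without any 1 of these 6 arrays other than adjacent replicate 2 (adjusted p from 0.0546 to 0.155). The most variable probe set, cyclic loess, array weights and the compared arrays alone also ended this call (0.0528 to 0.102), as did the minimum fold change of 1.5. Sult3a1, at 3.27 ± 0.122 in tumours, against 3.11 ± 0.0808 in wild type colon, was not called.

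Of the microsomal glutathione S-transferases, membrane proteins that also act on lipid peroxides and leukotrienes, Mgst3 and Mgst2 fell in the tumours and Mgst1 was not called. Mgst3 stood at 9.20, 8.43 and 8.58 in the tumours, against 11.26, 11.77 and 11.18 in adjacent tissue. The remaining arrays held 13.43, 12.33 and 13.31 in Olfm4 mutant colon and 13.52, 13.54 and 13.45 in APC mutant colon, against 13.52, 13.54 and 13.48 in wild type colon. APC mutant and wild type arrays lay close together, Olfm4 mutant replicate 2 lay lower at 12.33, and adjacent tissue and tumours each formed a lower step without overlap. Tumour was lower than adjacent tissue by -2.67 (SE 0.27, adjusted p = 1.35e-05), and adjacent tissue lower than wild type colon by -2.11 (SE 0.27, adjusted p = 0.000393). Together the tumours were 27.4-fold below wild type colon. Against Olfm4 mutant colon, adjacent tissue gave -1.62 (SE 0.27, adjusted p = 0.0505), just short of the threshold, and the interaction for Mgst3 was -1.61 (95% interval -2.43 to -0.79, adjusted p = 0.318). The second, dim Mgst3 probe set averaged 4.72 in tumours and 5.21 in adjacent tissue, against 6.18 in wild type colon, and the mean of both sets gave -1.58 for tumour minus adjacent tissue (adjusted p = 5.99e-05).

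Mgst2, which can make leukotriene C4, had 11.93, 11.91 and 11.81 in the tumours, against 12.70, 13.03 and 13 in adjacent tissue. Elsewhere Mgst2 read 12.89, 13.003 and 13.02 in Olfm4 mutant colon and 12.85, 12.82 and 12.78 in APC mutant colon, against 12.49, 12.85 and 12.79 in wild type colon. Only the tumours stood apart among these 15 arrays, lower than adjacent tissue by -1.03 (SE 0.12, adjusted p = 3.85e-05), and adjacent minus wild type was 0.20 (95% interval -0.06 to 0.46). Mgst1 had 11.53, 12.32 and 12.25 in the tumours, against 12.03, 12.46 and 12.67 in adjacent tissue. Its other levels were 12.46, 12.37 and 12.12 in Olfm4 mutant colon and 12.37, 11.75 and 11.73 in APC mutant colon, against 12.41, 12.27 and 12.36 in wild type colon. The groups overlapped throughout, and tumour minus adjacent tissue was -0.35 (95% interval -0.86 to 0.15, adjusted p = 0.304).

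The mu class, whose 7 genes form a cluster on chromosome 3 in the order Gstm5, Gstm7, Gstm6, Gstm3, Gstm2, Gstm1, Gstm4, split in the tumours. Gstm1, Gstm2 and Gstm3 fell against adjacent tissue, and Gstm5 and Gstm7, which sit at 1 end of the cluster, rose. Several of these genes are close in sequence: the kept probe sets of Gstm1, Gstm3 and Gstm6 carry a suffix for sets that can match more than 1 transcript, so their values may mix members. Gstm2 stood at 10.03, 9.77 and 9.55 in the tumours, against 12.12, 12.18 and 12.10 in adjacent tissue. Its single mutant and wild type values were 12.49, 12.42 and 12.45 in Olfm4 mutant colon and 12.73, 12.42 and 12.52 in APC mutant colon, against 12.62, 12.54 and 12.52 in wild type colon. Tumours were far below the rest and adjacent tissue just below, by -2.35 (SE 0.12, adjusted p = 1.17e-07) for tumour minus adjacent tissue and -0.42 (SE 0.12, adjusted p = 0.0215) for adjacent minus wild type. The second, small difference was not called without adjacent replicate 1 or 3 or wild type replicate 1 or 2 (adjusted p from 0.0509 to 0.0665).

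Gstm1, the most studied mu class enzyme, had 10.94, 10.58 and 10.73 in the tumours, against 12.28, 12.36 and 11.96 in adjacent tissue. In the other groups Gstm1 had 13.31, 12.67 and 13.26 in Olfm4 mutant colon and 13.73, 13.49 and 13.58 in APC mutant colon, against 13.85, 13.57 and 13.41 in wild type colon. The levels stepped down without overlap between tumours, adjacent tissue and the APC mutant and wild type arrays, with Olfm4 mutant colon between these. Tumour minus adjacent tissue was -1.45 (SE 0.18, adjusted p = 7.72e-05) and adjacent minus wild type -1.41 (SE 0.18, adjusted p = 0.000401), almost equal steps. With the spike-in covariate the tumour difference was -0.89 (adjusted p = 0.0106), and the other 3 Gstm1 probe sets gave -0.53 to -1.43. The covariate brought adjacent minus wild type to -0.11 (SE 0.35), which was not called, so the steps were equal only without it. Gstm3 averaged 11.59 ± 0.208 in tumours and 12.99 ± 0.225 in adjacent tissue, against 12.63 ± 0.0165 in wild type colon (SD, n = 3 each). Its fall in tumours was -1.39 against adjacent tissue. The second Gstm3 probe set, which lacks the shared suffix, gave 6.33 in tumours and 7.86 in adjacent tissue, against 9.59 in wild type colon, so it was lower in adjacent tissue as well (-1.73), where the kept set was not (0.35).

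Gstm7 rose in the tumours, with 10.12, 10.45 and 11.12 in the tumours, against 8.04, 9.37 and 9.23 in adjacent tissue. Other colons had 9.28, 9.28 and 9.14 in Olfm4 mutant colon and 9.60, 8.98 and 9.03 in APC mutant colon, against 9.47, 8.86 and 9.18 in wild type colon. All 3 tumours lay above the other 12 arrays, and adjacent replicate 1 was the lowest of all. The rise was 1.68 (SE 0.33, adjusted p = 0.00209), or 3.21-fold, against adjacent tissue and 1.39 (SE 0.33, adjusted p = 0.00377) against wild type colon. The second, dim Gstm7 probe set gave 0.16 for tumour minus adjacent tissue, and the mean of both sets 0.92 (adjusted p = 0.00045). Gstm5 averaged 12.70 ± 0.18 in tumours and 11.68 ± 0.273 in adjacent tissue, against 12.03 ± 0.249 in Olfm4 mutant, 12.52 ± 0.36 in APC mutant and 12.71 ± 0.221 in wild type colon. The tumours were higher than adjacent tissue by 1.02 and level with wild type colon (difference -0.01, 95% interval -0.46 to 0.43), while adjacent minus wild type was -1.03 (SE 0.20, adjusted p = 0.00319).

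Gstm6 had 6.07, 5.94 and 6.64 in the tumours, against 6.32, 7.42 and 7.25 in adjacent tissue. Its remaining values were 7.99, 7.01 and 8.03 in Olfm4 mutant colon and 8.34, 7.83 and 7.76 in APC mutant colon, against 8.38, 7.95 and 8.16 in wild type colon. Tumours and adjacent tissue overlapped through adjacent replicate 1, and Gstm6 was called against wild type colon in tumours, at -1.94 (SE 0.33, adjusted p = 0.000302), and in adjacent tissue, at -1.16 (SE 0.33, adjusted p = 0.0193). The adjacent call was lost without adjacent replicate 1 or wild type replicate 1 (adjusted p of 0.0752 and 0.0525). With the spike-in covariate these 2 differences changed sign, to 0.67 and 0.66, with adjusted p of 0.963 and 1. Gstm4 averaged 7.66 ± 0.0844 in tumours and 8.15 ± 0.318 in adjacent tissue, against 8.67 ± 0.139 in wild type colon, and was called only between tumour and wild type (-1.01).

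The theta class, genes for an enzyme form that acts on small halogenated compounds and peroxides, lies in the order Gstt3, Gstt1, Gstt4, Gstt2 on chromosome 10, and 3 of its 4 members fell in the tumours (75%, against 13.8% of all genes). Gstt1 stood at 9.20, 8.94 and 8.99 in the tumours, against 10.84, 11.02 and 10.95 in adjacent tissue. Elsewhere it stood at 10.94, 11.20 and 11.28 in Olfm4 mutant colon and 11.43, 10.75 and 10.90 in APC mutant colon, against 11.40, 10.74 and 10.86 in wild type colon. Adjacent tissue lay inside the range of wild type colon, and tumours were lower than adjacent tissue by -1.89 (SE 0.20, adjusted p = 1.67e-05). Gstt3 had 8.44, 8.46 and 7.93 in the tumours, against 9.57, 10.33 and 10.26 in adjacent tissue. Its values in the other mice were 10.28, 10.50 and 10.34 in Olfm4 mutant colon and 10.61, 9.96 and 10.36 in APC mutant colon, against 10.75, 10.38 and 10.08 in wild type colon. Gstt3 gave -1.77 (SE 0.24, adjusted p = 0.000138) for tumour minus adjacent tissue and -0.35 (95% interval -0.87 to 0.17) for adjacent minus wild type.

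Gstt2 was lower than in wild type colon in adjacent tissue as well as in the tumours. Its levels were 8.28, 8.04 and 8.10 in the tumours, against 9.32, 9.59 and 9.32 in adjacent tissue. Olfm4 and APC mutant colon had 10.84, 9.96 and 10.66 and 11.71, 10.88 and 10.84, against 11.37, 11.39 and 11.22 in wild type colon. Neither tumour nor adjacent values overlapped those of the other groups, and adjacent minus wild type was -1.92 (SE 0.24, adjusted p = 0.000393), with tumour minus adjacent tissue at -1.27 (SE 0.24, adjusted p = 0.00157). The spike-in covariate brought the tumour difference to -0.57 (adjusted p = 0.213) and adjacent minus wild type to -0.29 (SE 0.50), neither of them called. The tumours were 9.12-fold below wild type colon. In Olfm4 mutant colon the difference from wild type was -0.84 (95% interval -1.36 to -0.32), which missed the threshold at an adjusted p of 0.0516. Gstt4, dim at 5.38 ± 0.0991 in tumours, against 5.47 ± 0.341 in wild type colon, was called in no comparison.

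The alpha class held 1 gene that was lower and 1 that was higher in tumours than in wild type colon. Gsta3 stood at 8.66, 8.01 and 8.76 in the tumours, against 8.69, 9.65 and 9.51 in adjacent tissue. Its levels in the other groups were 10.44, 9.55 and 10.61 in Olfm4 mutant colon and 10.97, 11.16 and 10.84 in APC mutant colon, against 11.11, 11.06 and 10.79 in wild type colon. Tumours and adjacent tissue overlapped, both mostly below the single mutants, and both were lower than wild type colon, tumours by -2.51 (SE 0.30, adjusted p = 2.05e-05) and adjacent tissue by -1.70 (SE 0.30, adjusted p = 0.00174). The second Gsta3 probe set, at means of 7.80 in tumours and 7.88 in adjacent tissue, against 7.63 in wild type colon, showed a difference of 0.17 for tumour minus wild type and was not called. The mean of both sets gave -1.17 for tumour minus wild type and -0.73 for adjacent minus wild type (adjusted p = 0.000298 and 0.0169). Gsta4, the enzyme that conjugates the lipid oxidation product 4-hydroxynonenal, had 13.19, 13.28 and 13.23 in the tumours, against 12.72, 12.97 and 13.003 in adjacent tissue. Other mice had 12.84, 12.19 and 12.67 in Olfm4 mutant colon and 12.54, 12.96 and 12.06 in APC mutant colon, against 12.75, 12.39 and 10.92 in wild type colon. The tumours were the highest 3 of the 15 arrays and wild type replicate 3 the lowest. The rise was 1.21 (SE 0.37, adjusted p = 0.0165) against wild type colon, and 0.34 (95% interval -0.47 to 1.15) against adjacent tissue. Without wild type replicate 3 the first was 0.66 (adjusted p = 0.0449), and it was not called on the compared arrays alone (0.0783) or with averaged arrays (0.0547). Gsta2 averaged 6.57 ± 0.363 in tumours and 7.16 ± 0.468 in adjacent tissue, against 5.88 ± 0.575 in wild type colon, and was called higher in adjacent tissue than in wild type by 1.28 (SE 0.45, adjusted p = 0.0493), a call lost without any 1 of these 6 arrays other than wild type replicate 1 (adjusted p from 0.0532 to 0.172), with animal as a random block (0.0810) and with averaged arrays (0.134).

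Gstp1, the pi class enzyme and the brightest member of the 47, was nearly level. It read 13.71, 13.72 and 13.70 in the tumours, against 13.70, 13.71 and 13.70 in adjacent tissue. The other groups gave 13.76, 13.69 and 13.78 in Olfm4 mutant colon and 13.91, 13.85 and 13.78 in APC mutant colon, against 13.91, 13.87 and 13.92 in wild type colon. Tumour and adjacent values lay between 13.70 and 13.72, all below every wild type array, with tumour minus wild type at -0.19 (95% interval -0.36 to -0.01, adjusted p = 0.0707). These levels lie near the upper end of the scale, whose highest value in the table is 14.96. Gstp3, a second pi class gene, did differ, with 7.15, 8.05 and 8.17 in the tumours, against 8.54, 9.89 and 9.58 in adjacent tissue. The single mutants and wild type had 10.02, 9.13 and 10.04 in Olfm4 mutant colon and 10.42, 9.75 and 10.10 in APC mutant colon, against 10.52, 9.62 and 10.09 in wild type colon. No tumour array reached an adjacent one, and the fall was -1.54 (SE 0.39, adjusted p = 0.00959) against adjacent tissue and -2.28 (SE 0.39, adjusted p = 0.000336) against wild type colon. The first was not called once the arrays of 1 animal were averaged (adjusted p = 0.0530), and with the spike-in covariate it was -0.89 (0.376).

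Among the single-gene and omega classes, Gstk1, a mitochondrial and peroxisomal transferase, had 10.71, 10.47 and 10.29 in the tumours, against 11.67, 11.98 and 11.98 in adjacent tissue. Its other values were 12.31, 12.19 and 12.52 in Olfm4 mutant colon and 13.003, 12.54 and 12.42 in APC mutant colon, against 12.81, 12.94 and 12.62 in wild type colon. Tumours, adjacent tissue and wild type colon did not overlap, with steps of -1.39 (SE 0.17, adjusted p = 5.88e-05) for tumour minus adjacent tissue and -0.91 (SE 0.17, adjusted p = 0.00234) for adjacent minus wild type. Gstz1, the maleylacetoacetate isomerase of tyrosine breakdown, read 9.22, 9.39 and 9.48 in the tumours, against 8.83, 9.52 and 9.64 in adjacent tissue. Further Gstz1 values were 9.25, 8.94 and 9.10 in Olfm4 mutant colon and 9.60, 8.87 and 9.18 in APC mutant colon, against 9.40, 9.24 and 9.14 in wild type colon. All 5 groups overlapped, and tumour minus adjacent tissue was 0.03 (95% interval -0.43 to 0.50).

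Gsto1, which reduces dehydroascorbate, had 12.61, 12.70 and 12.34 in the tumours, against 12.69, 12.82 and 13.11 in adjacent tissue. In other mice it had 12.87, 12.82 and 12.36 in Olfm4 mutant colon and 12.52, 12.60 and 12.94 in APC mutant colon, against 12.90, 12.83 and 12.91 in wild type colon. Tumours and adjacent tissue overlapped, and the difference of -0.32 (95% interval -0.69 to 0.04) was not called, although the second Gsto1 probe set was lower in tumours, at 11.80 against 12.62 in adjacent tissue (difference -0.82, adjusted p = 0.000189 over all probe sets). Gsto2 was dimmer, with 4.67, 4.90 and 4.54 in the tumours, against 5.20, 5.28 and 5.44 in adjacent tissue. Its other levels were 5.57, 5.83 and 5.36 in Olfm4 mutant colon and 5.13, 5.30 and 5.28 in APC mutant colon, against 5.69, 5.28 and 5.37 in wild type colon. The tumours lay below all other arrays, by -0.61 (SE 0.15, adjusted p = 0.00849) against adjacent tissue. The spike-in covariate gave -0.96.

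The Ugt2 genes, which glucuronidate steroids, bile acids and drugs, lie in a row on chromosome 5. Of 8 measured, 2 fell in tumours against adjacent tissue and 0 rose (25% and 0%, against 13.8% and 14.3% of all genes). Ugt2b34, the brightest of them, stood at 12.64, 12.71 and 12.52 in the tumours, against 13.27, 13.38 and 13.33 in adjacent tissue. Elsewhere its values were 13.62, 13.54 and 13.53 in Olfm4 mutant colon and 13.40, 13.50 and 13.54 in APC mutant colon, against 13.31, 13.39 and 13.46 in wild type colon. The tumours lay below all others by a small margin that the replicates held closely, -0.71 (SE 0.091, adjusted p = 9.03e-05). Ugt2b1 was dimmer, with 4.06, 3.69 and 4.22 in the tumours, against 6.61, 6.66 and 6.75 in adjacent tissue. Its level in the other mice was 6.21, 6.42 and 6.82 in Olfm4 mutant colon and 6.61, 6.71 and 7.01 in APC mutant colon, against 6.15, 5.52 and 6.41 in wild type colon. Tumours were lowest, by -2.68 (SE 0.22, adjusted p = 3.25e-06) against adjacent tissue, at levels near those of the dimmest Ugt2 genes, so that this difference is a lower bound at most. Adjacent tissue was above wild type by 0.65 (SE 0.22, adjusted p = 0.0479), a call lost without any 1 of these 6 arrays other than wild type replicate 3 (adjusted p from 0.0586 to 0.194), with animal as a random block (0.0769) and with averaged arrays (0.106). Without wild type replicate 2 the difference was 0.39.

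Ugt2b5 varied widely between mice of 1 genotype. Its values were 4.60, 4.73 and 4.40 in the tumours, against 4.27, 4.80 and 5.63 in adjacent tissue. Olfm4 mutant and APC mutant mice had 5.05, 9.12 and 7.32 and 6.70, 5.78 and 4.29, against 3.92, 9.04 and 5.93 in wild type colon. Olfm4 mutant replicate 2 and wild type replicate 2 stood above 9 while wild type replicate 1 stood below 4. The group SDs were 2.04 and 2.58 in these genotypes, tumour minus wild type was -1.72 with a 95% interval of -4.23 to 0.79, and it was called in no comparison. Ugt2b36 had 4.77, 5.04 and 5.10 in the tumours, against 4.99, 5.50 and 5.67 in adjacent tissue. Its further levels were 5.42, 6.39 and 6.03 in Olfm4 mutant colon and 6.07, 5.56 and 5.23 in APC mutant colon, against 5.33, 6.48 and 5.78 in wild type colon. Tumours overlapped adjacent tissue and lay below wild type colon, by -0.89 (SE 0.32, adjusted p = 0.0326), a call lost without any 1 of these 6 arrays other than wild type replicate 1 (adjusted p from 0.0533 to 0.145) and with averaged arrays (0.0668). Without wild type replicate 2 it was -0.58. Ugt2b35 averaged 10.23 ± 0.174 in tumours and 10.57 ± 0.384 in adjacent tissue, against 9.68 ± 0.452 in wild type colon, and adjacent tissue was higher than wild type by 0.89 (SE 0.24, adjusted p = 0.0163). With the spike-in covariate this was -0.13, and the call was lost without adjacent replicate 2 or 3 or wild type replicate 2 (adjusted p from 0.0541 to 0.0721) and with averaged arrays (0.0707). Ugt2b37, Ugt2b38 and Ugt2a3 averaged 3.75 ± 0.0678, 3.48 ± 0.141 and 3.04 ± 0.134 in tumours, against 3.59 ± 0.0292, 3.43 ± 0.105 and 2.93 ± 0.0013 in wild type colon, near the lowest values of the table, and none was called.

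Ugt8a, a glycosyltransferase that makes galactosylceramide, a main lipid of myelin, had the largest rise among the 47 genes between tumour and adjacent tissue. Its values were 8.44, 5.996 and 7.93 in the tumours, against 4.92, 5.74 and 5.97 in adjacent tissue. Other colons held 5.15, 5.75 and 5.36 in Olfm4 mutant colon and 5.28, 5.73 and 4.71 in APC mutant colon, against 5.21, 5.41 and 5.62 in wild type colon. Tumour replicates 1 and 3 stood apart at about 8, and tumour replicate 2 lay just above the highest adjacent array. The rise of 1.91 (SE 0.50, adjusted p = 0.012) was lost on the compared arrays alone (adjusted p = 0.067) and with the replicate block on these (0.0803). It was also lost without tumour replicate 1 or 3 or adjacent replicate 1, with adjusted p from 0.0525 to 0.0540. Its second probe set was dim, at 4.26 in tumours and 4.01 in adjacent tissue, and the mean of both sets gave a rise of 1.08 (adjusted p = 0.00884). Ugt3a1 and Ugt3a2 averaged 5.91 ± 0.127 and 3.67 ± 0.101 in tumours, against 5.94 ± 0.131 and 3.49 ± 0.0575 in wild type colon, and were called in no comparison.

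**Figure D3:**
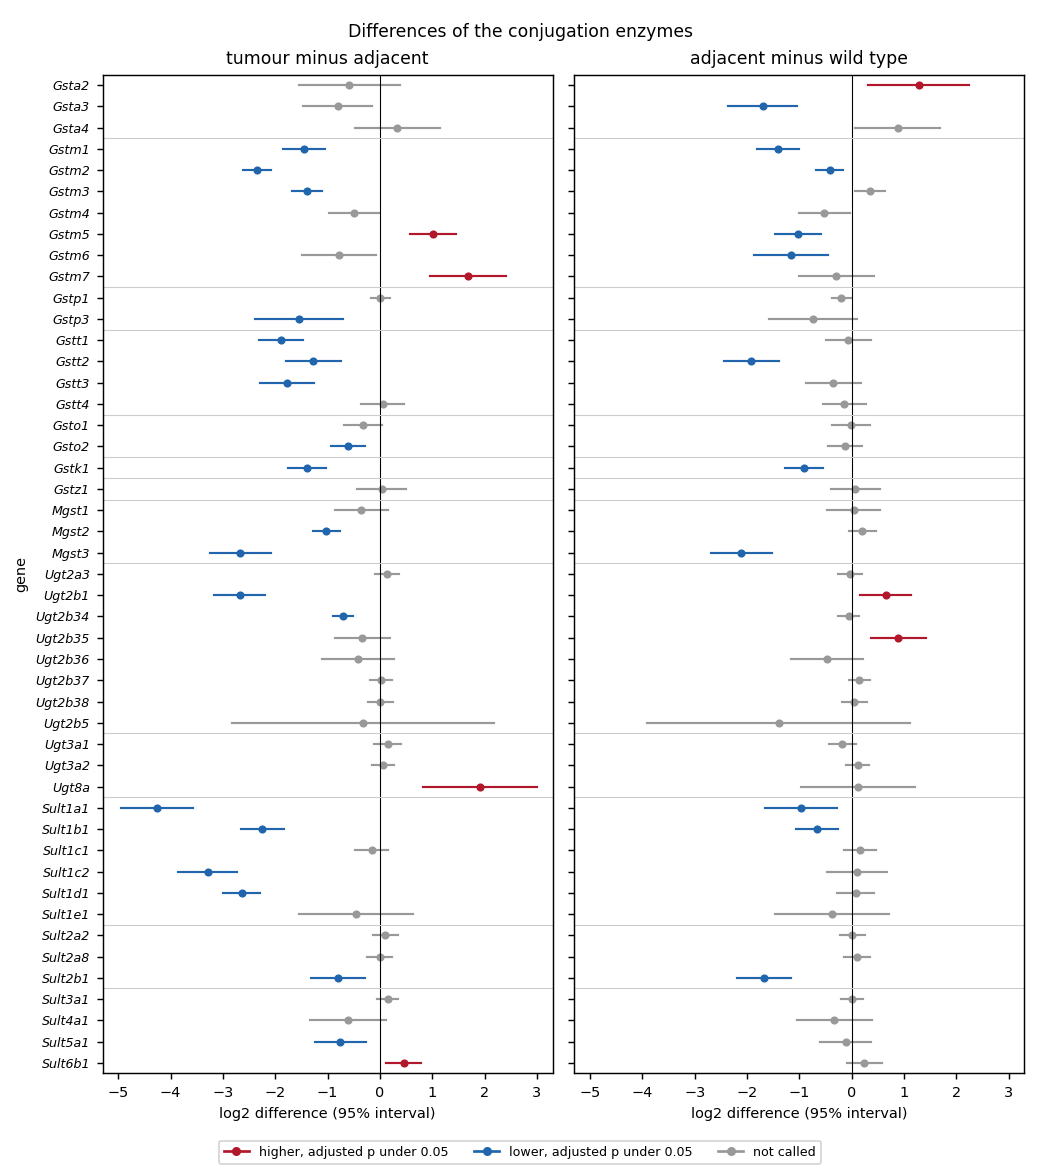
Log2 difference with 95% interval of each of the 47 conjugation enzymes, for tumour minus adjacent tissue (left) and adjacent tissue minus wild type colon (right); red is higher and blue lower at an adjusted p of 0.05, grey not called. Blue points reach -4.26 (Sult1a1) on the left and -2.11 (Mgst3) on the right, and Sult1c2, Sult1d1, Gstt1 and Mgst2 are blue on the left and grey on the right.

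Calls were counted apart for dim and bright members. Of the 14 members whose mean over the 15 arrays lay below the lower quartile of all genes (5.76), 2 were called between tumour and adjacent tissue, with 10.7% of all genes below that level. Of the other 33 members 21 were called, with 33.9% of the other genes. The comparisons of adjacent tissue with wild type colon and of tumour with adjacent tissue share the adjacent arrays, so their values are only set side by side. Among the members lower in tumours than in wild type colon, Sult1c2, Sult1d1, Gstt1, Gstt3, Mgst2 and Ugt2b34 had adjacent minus wild type differences of 0.10, 0.07, -0.06, -0.35, 0.20 and -0.06. For Mgst3, Gstt2, Gsta3, Sult2b1 and Gstm1 these were -2.11, -1.92, -1.70, -1.68 and -1.41, the lowest such values on the kept probe sets. Other members lay between these lists, such as Gstm6 (-1.16), Gstk1 (-0.91) and Gstm4 (-0.52). The ranking depends on the probe set, as the mean of both Gsta3 sets gave -0.73 and the second Gstm3 set was lower in adjacent tissue. Comparisons with the single mutants reuse the same adjacent arrays, so for the 5 lowest genes they add no separate support. Adjacent minus APC mutant gave -2.10, -1.73, -1.71, -1.23 and -1.40 for these 5. Against Olfm4 mutant colon the same 5 gave -1.62, -1.08, -0.91, -0.90 and -0.88, none of them called. Beside these, 4 of 12 absorptive colonocyte markers and 3 of 7 pan-epithelial markers were lower in adjacent tissue than in wild type colon. Of 6 macrophage markers 4 were higher and 1 was lower, the last by -3.69. Of all genes 10.1% were lower and 17.7% higher there. With the spike-in covariate 0 of the 14 members called between adjacent tissue and wild type remained called and 12 kept their sign. The median SE was 0.61 in place of 0.24, and the estimates moved too. For Mgst3, Gstt2, Gsta3, Sult2b1 and Gstm1 they became -0.46, -0.29, -0.23, -0.65 and -0.11. Those of Sult1c2, Sult1d1, Gstt1, Gstt3, Mgst2 and Ugt2b34 became -1.19, -0.52, 0.17, -0.85, -0.07 and -0.20.

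The supply of the donors was described from lists of pathway genes, in a comparison where 13.8% of all genes fell and 14.3% rose. Of 10 measured genes that make or carry UDP-glucuronate and the sulfate donor, 6 fell in tumours against adjacent tissue and 1 rose (60% and 10%), with a median of -0.51. Slc26a2, a sulfate importer that is also among the colonocyte markers, averaged 11.001 ± 0.06 in tumours and 13.45 ± 0.0804 in adjacent tissue, a difference of -2.44 (SE 0.094, adjusted p = 1.71e-08). Papss2, which makes the sulfate donor PAPS, differed by -0.94 (SE 0.22, adjusted p = 0.00664), and was lower in adjacent tissue than in wild type colon as well, by -1.56 (SE 0.22, adjusted p = 0.000615). Ugdh, which makes UDP-glucuronate, fell by 0.86 in tumours against adjacent tissue (adjusted p = 0.00044). Slc35b2, which carries PAPS into the Golgi, rose by 0.89. Of 13 genes of glutathione synthesis and thiol supply 10 were not called, with 1 lower and 2 higher, and these shares (7.69% and 15.4%) were near those of all genes or below. The cystine importer Slc7a11 rose by 1.68 (SE 0.43, adjusted p = 0.0098) and Chac1, which degrades glutathione, by 2.20 (SE 0.26, adjusted p = 4.12e-05), while Ggt6, of the gamma-glutamyltransferase family, gave -1.68 (SE 0.17, adjusted p = 1.8e-05).

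The listed export pumps, which are not all known for carrying conjugates, split evenly, 3 higher and 3 lower of 7 (42.9% each way). Abcc2, Abcc4 and Abcc1 rose by 3.08, 2.05 and 0.87, and Abcg2, Abcb1a and Abcc3 differed by -2.28, -3.003 and -1.75. Of 11 sensors and partner factors 6 fell and 1 rose (54.5% and 9.09%). The intestinal factor Cdx2 (-2.74), the Ahr repressor Ahrr (-1.95) and the xenobiotic receptors Nr1i3 (-1.70) and Nr1i2 (-1.46) fell, as did Hnf4a by a smaller amount (-0.38, adjusted p = 0.00726). Ahr rose by 0.85 (adjusted p = 0.0102). Nfe2l2 differed by -0.01 (95% interval -0.26 to 0.24). Of 8 measured Nfe2l2 targets outside the conjugation families 2 rose and 2 fell (25% each way), with Hmox1 at 2.03, Osgin1 at -1.33 and Nqo1 not called at -0.43 (adjusted p = 0.16). Of 7 Ahr targets 0 rose and 1, Ahrr, fell (14.3%, close to the 13.8% of all genes). Of 3 glucuronidase and sulfatase genes, the beta-glucuronidase Gusb rose by 1.22 and the sulfatase Arsa gave -0.63.

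**Figure D4:**
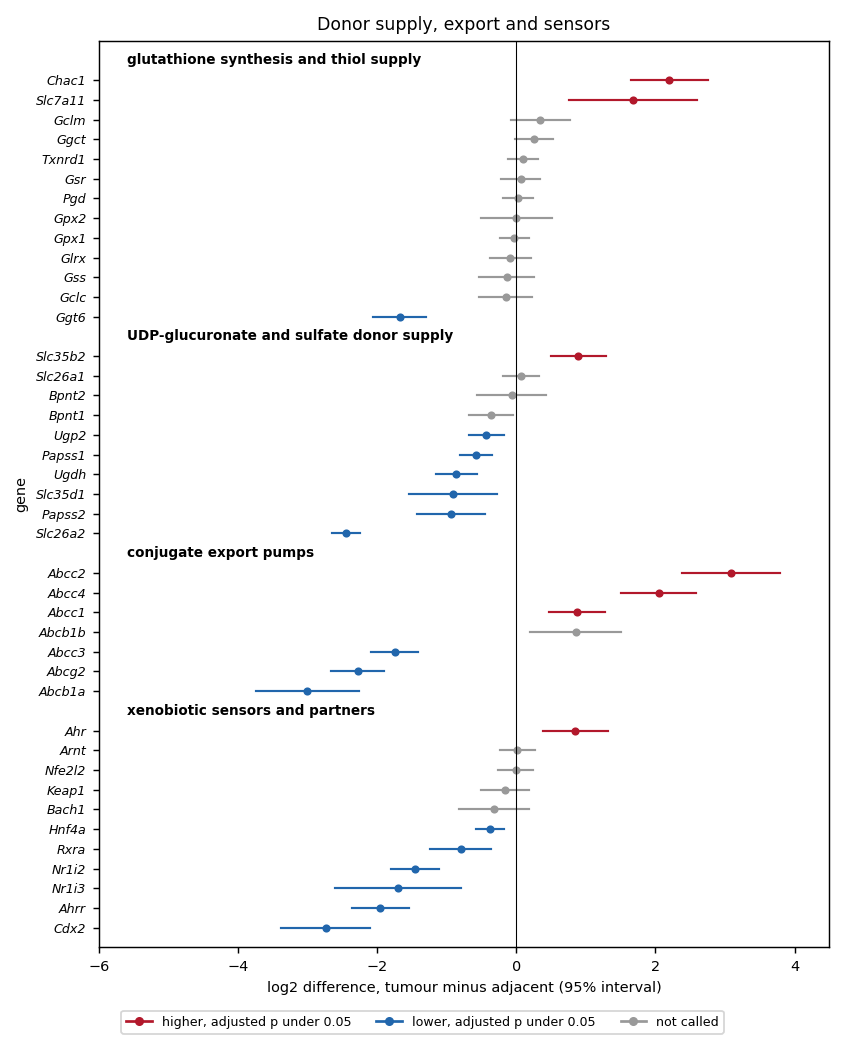
Log2 difference, tumour minus adjacent tissue, with its 95% interval for genes of glutathione and thiol supply, of UDP-glucuronate and sulfate donor supply, of export pumps and of xenobiotic sensing. Most thiol supply genes are grey near 0, donor supply genes are mostly blue, and pumps run from Abcc2 at 3.08 to Abcb1a at -3.003.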

How the data were processed

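Biotinylated cRNA was made from total RNA of mouse colon and read on 15 arrays of the Affymetrix Mouse430_2 type, as the labels' protocols describe. The deposited values are log2 levels per probe set that the authors made with RMA in Partek 6.5, per the submitters' processing notes. RMA gives all arrays 1 common distribution, which hides most of a change shared by the bulk of genes. The expression values rest on no genome build, which served only for gene order and promoters, and detection calls were not used here. The table runs from 2.56 to 14.96, with array medians from 6.35 to 6.47, and the number of arrays limits the precision.

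Of 45101 probe sets 64 are controls, 34945 carry 1 gene symbol, 932 several and 9160 none, and the last 2 kinds were not tested as genes. The probe set with the highest mean stood for each of 18193 genes, and 12 of the 47 members rest on a set with a shared suffix. No filter on dim genes was applied. Groups came from the genotype and tissue labels. Limma 3.58.1 in R 4.3.3 fitted 5 group means to 15 arrays (lmFit, eBayes), and each comparison was adjusted by Benjamini-Hochberg over all genes, called at 0.05. Single probe sets were adjusted over all 45037. SE is that of the fitted log2 difference. The fit was tested on simulated data.

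Animal numbers in the titles tie tumour arrays to adjacent arrays, and the replicate number set the pairs. Deviations from the group means correlated at 0.281, -0.0155 and 0.182 for pairs 1, 2 and 3. Replicates 2 and 3 are pieces of 1 animal, and which of its tumour and adjacent pieces belong together is not stated. Crossing these pieces gave 0.124 and 0.126. Alternatives were the mean or the most variable probe set, only genes above the median mean, no sets with a shared suffix, cyclic loess, a trend and robust prior, array weights, the spike-in difference as a covariate, a fit to the compared groups alone, a minimum fold change of 1.5, animal as a random block, averaged arrays, the replicate block and each array left out. Marker and pathway sums are log2 of summed linear levels. Values in every array are given for 31 members chosen by class, call and size. The plan was to name up to 4 genes per pathway or marker list, and for some pathway lists more are named. The members and lists were chosen with earlier results of these data known. Promoters come from RefSeq (GRCm38.p6), and protein sequences were not used here.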

Additional observations from a re-analysis of the deposited data

How the results depend on the processing

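Between tumour and adjacent tissue the number of members called, 23, stayed between 17 and 26 under every alternative run, and none of the 23 changed sign. Leaving out 1 array gave 20 to 22. The replicate block, which pairs tumour and adjacent tissue of the same animal, gave 22 and ended the calls of Ugt8a and Sult6b1 but of no other among the 23. It was fitted to the compared arrays alone, which without the block ended the same 2 calls (adjusted p of 0.067 and 0.102). The cause of the losses was not tested. Between tumour and wild type colon (28 calls) leaving out 1 array gave 26 to 29, and the spike-in covariate gave 0. Adjacent minus wild type (14 calls) gave 0 with the covariate, 10 with animal as a random block, 10 with the arrays of 1 animal averaged and 8 to 12 without 1 array, and adjacent minus APC mutant (8 calls) gave 0 with the covariate. The covariate nearly follows the groups, and the median SE of the members called rose with it in each of these comparisons. Estimates moved both ways, as tumour minus wild type went from -4.78 to -2.41 for Mgst3 and from -3.19 to -5.04 for Sult1c2. With the covariate Gstm6 turned to 0.67 for tumour minus wild type and 0.66 for adjacent minus wild type. Ugt2b35 turned to -0.13 for adjacent minus wild type, and none of the 3 was called.

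Adjacent minus Olfm4 mutant (0 calls) gave 3 with the most variable probe set, 3 with only genes above the median mean, 2 with a trend and robust prior, 8 with array weights, and 0 to 4 without 1 array. Olfm4 mutant minus wild type (0 calls) gave 1 with the mean of all probe sets, 1 with the most variable probe set, 3 with only genes above the median mean, 2 with cyclic loess, 2 with a trend and robust prior, 3 with array weights, and 0 to 2 without 1 array. The interaction gave 0 to 1 without 1 array and 0 under the other alternatives. APC mutant minus wild type gave 0 under each alternative run. The 0 calls of the main fit in these 4 comparisons cover all 47 members, the 14 below the lower quartile of all genes and the 33 others alike.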

Other observations

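The Ugt1a locus, which makes the main UDP-glucuronosyltransferases for bilirubin and phenols from 1 set of shared exons, is read by 3 probe sets that carry several symbols and so do not stand for a single gene. They were picked with their values in view. The first averaged 11.86 in tumours and 13.35 in adjacent tissue, against 13.35 in wild type colon, with tumour minus adjacent tissue at -1.48. The second averaged 11.12 in tumours and 12.82 in adjacent tissue, against 12.97 in wild type colon, a difference of -1.70 between tumour and adjacent tissue. The third averaged 8.40 in tumours and 11.44 in adjacent tissue, against 12.46 in wild type colon. Its tumour minus adjacent difference was -3.05 and its adjacent minus wild type difference -1.02 (adjusted p = 0.000614 over all probe sets), so the 3 sets differ on whether adjacent tissue is lower than wild type colon.

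A probe set shared by Gsta1, Gsta2 and Gm3776 averaged 9.36 in tumours and 11.12 in adjacent tissue, against 11.19 in wild type colon, a tumour minus adjacent difference of -1.76 (adjusted p = 0.00965 over all probe sets). The set kept for Gsta2 alone gave -0.58 and was not called. The probe set shared by Ugt2a1 and Ugt2a2 was dim, at 4.20 in tumours and 4.15 in adjacent tissue, against 3.97 in wild type colon.

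Other enzymes outside the rule that conjugate or hydrolyse foreign compounds also moved in the tumours against adjacent tissue, 4 lower and 1 higher of 10 measured. The epoxide hydrolase Ephx2 differed by -2.12, the histamine N-methyltransferase Hnmt by -1.76, the indolethylamine N-methyltransferase Inmt by -1.32 and the arylamine N-acetyltransferase Nat2 by -1.03, while Ephx1, the microsomal epoxide hydrolase, rose by 0.73. Their share lower stands beside 13.8% lower among all genes. In adjacent tissue against wild type colon 2 of the 10 were higher, Nnmt by 2.37 and Ephx2 by 0.89, a share (20%) close to the 17.7% of all genes.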
